A study of Mus musculus with 2 samples.

Results

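DNase-seq marks the stretches of a genome that are open enough for the enzyme DNase I to cut, and the widest such stretches in mouse urinary bladder are described here. At each base, the deposited false discovery rate of the cut rate was taken, and bases at 0.001 or below were joined into continuous regions in each animal. The regions of both animals were intersected, which gave 87359 autosomal segments, and the 1000 widest segments are the regions described. They were chosen on width alone, so their widths, and the peaks and footprints drawn from the same cuts, are given as descriptions without a test. The tissue came from 2 female B6CASTF1/J mice aged 36 days, an F1 hybrid of the C57BL/6J and CAST/EiJ strains, with 1 library per animal (animals 1 and 2 below). Both animals form a single untreated group, so no condition is compared, and a mean ± SD over n = 2 is the only replicate error. The labels give whole bladder, a mixture of urothelium, smooth muscle, fibroblasts, vessels and blood cells, so the share of each cell type and the opening per cell cannot be told apart.

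Open chromatin is mostly found where nucleosomes have been displaced at promoters and enhancers. Many mammalian promoters lie in CpG islands, stretches rich in G, C and the CpG dinucleotide that usually stay unmethylated. A DNase footprint is a short interval inside an open region that is cut less than its flanks, as happens where a bound protein covers the DNA. SP and KLF factors bind GC boxes, ETS factors bind near many housekeeping promoters, CTCF binds insulators, and AP-1 is known from distal enhancers.

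The sequences show what such regions look like at base level, in 4 of the widest regions at promoters and in 1 without an annotated start within 1 kb. Each is the stretch of 200 bases, free of annotated exons, that holds the most footprint bases in its region. They are from the plus strand of GRCm38, and capitals mark bases inside footprints found in both animals.
Ppp2r3d, chr9:124423584-124423783: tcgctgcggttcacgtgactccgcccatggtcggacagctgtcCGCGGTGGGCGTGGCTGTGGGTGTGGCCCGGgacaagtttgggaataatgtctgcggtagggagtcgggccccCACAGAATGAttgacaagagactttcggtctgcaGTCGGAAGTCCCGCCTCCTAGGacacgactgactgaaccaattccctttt
Myc, chr15:61985047-61985246: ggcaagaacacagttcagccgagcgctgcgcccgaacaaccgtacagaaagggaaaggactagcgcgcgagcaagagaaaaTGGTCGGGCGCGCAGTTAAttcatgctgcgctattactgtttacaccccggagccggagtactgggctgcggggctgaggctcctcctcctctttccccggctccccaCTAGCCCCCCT
Zfp503, chr14:21988301-21988500: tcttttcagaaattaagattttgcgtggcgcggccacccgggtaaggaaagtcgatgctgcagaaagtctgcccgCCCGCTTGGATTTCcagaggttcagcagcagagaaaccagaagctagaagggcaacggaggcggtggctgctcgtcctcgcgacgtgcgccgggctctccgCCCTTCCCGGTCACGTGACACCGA
Hnrnpa2b1, chr6:51469895-51470094: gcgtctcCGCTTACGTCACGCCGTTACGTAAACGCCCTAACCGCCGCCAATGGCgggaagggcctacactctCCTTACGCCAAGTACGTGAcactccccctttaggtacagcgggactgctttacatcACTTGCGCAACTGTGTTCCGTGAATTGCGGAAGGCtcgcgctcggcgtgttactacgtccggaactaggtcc
Intergenic region of rank 148, chr15:81523158-81523357: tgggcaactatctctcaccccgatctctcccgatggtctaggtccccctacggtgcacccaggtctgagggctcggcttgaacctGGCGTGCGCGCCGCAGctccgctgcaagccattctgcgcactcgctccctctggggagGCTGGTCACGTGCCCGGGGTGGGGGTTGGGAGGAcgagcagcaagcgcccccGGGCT
The Hnrnpa2b1 stretch had 101 of its 200 bases in 3 shared footprints, one of which holds a CCAAT box. The Ppp2r3d stretch had 63 bases in 3 footprints and holds a GC box, a CCAAT box and the E-box CACGTG, each mostly outside the footprints. The E-box lay in a footprint in the Zfp503 stretch and in the intergenic stretch, where 38 and 55 bases were footprinted. The Myc stretch had 30 bases in 2 footprints and none of the 16 consensus sequences searched. A match to a consensus is a description of the letters, not a bound site.

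The 1000 regions were 1245 to 3618 bp wide in the sequence shared by both animals, with a median of 1453.5 bp. They made up 9.24% of all shared open bases. The next 1000 segments were 1028 to 1244 bp wide, and the 86359 other segments together had a median of 93 bp. Of these others, 43826 were under 100 bp, and the regions that these other segments are part of in animals 1 and 2 had median widths of 233 and 258 bp, so many are pieces of larger regions. The limit of 1000 fell in a continuous distribution, as the regions at Orai3, Tcf25 and Polr3g/Mblac2 at ranks 998 to 1000 were 1245 bp wide and those at Ranbp2, P4ha1 and Rxylt1 at ranks 1001 to 1003 were 1244 bp wide.

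The widest region lay at Ppp2r3d, which encodes a regulatory subunit of protein phosphatase 2A (chr9:124422466-124426083, 3618 bp). It was 3618 bp wide in animal 1 and 3688 bp in animal 2, and it held 48 and 55 footprints in these animals, of which 33 were found in both. No other region had as many in either animal. The second region, at the protocadherin gene Pcdh7, was 3572 bp wide in animal 1, while animal 2 had a continuous region of 6214 bp there. Its highest peak reached only 1.87 in animal 1 and 1.71 in animal 2, in the authors' signal units. Myc, the growth-promoting transcription factor, had the third region with 3483 bp, 26 and 33 footprints and peak heights of 3.92 and 3.30. Zfp503, a zinc-finger gene, followed with 3264 bp and Actg1, the cytoplasmic gamma actin, with 3204 bp.

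Ranks 6 to 25 included the transcription factor and cofactor genes Nr3c1, the glucocorticoid receptor (3147 bp), Foxo1 (2884 bp), Cited2, which binds the coactivators CBP and p300 (2874 bp), Sp3, which binds GC boxes (2555 bp), and Stat6, which carries interleukin-4 signals (2398 bp). Genes of chromatin proteins among them were Brd2, a reader of acetylated histones that shares its 2770-bp region with H2-DMa, the histone H3 lysine 4 methyltransferase gene Kmt2c (2682 bp), the cohesin gene Stag1 (2495 bp) and the corepressor gene Sin3a (2402 bp). Receptor genes were Bmpr2, a type II receptor for bone morphogenetic proteins (2645 bp), and Fzd8, a Wnt receptor (2511 bp). The other genes were Tsc22d2, Ints6, Tob1, Cdk13, Zbtb25/Zbtb1, Hnrnpa2b1/Cbx3, Nufip2, Mex3b and Ppp3ca, at 2391 to 3091 bp. No test for enrichment was run, so this order describes the list and no more.

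**Figure D1:**
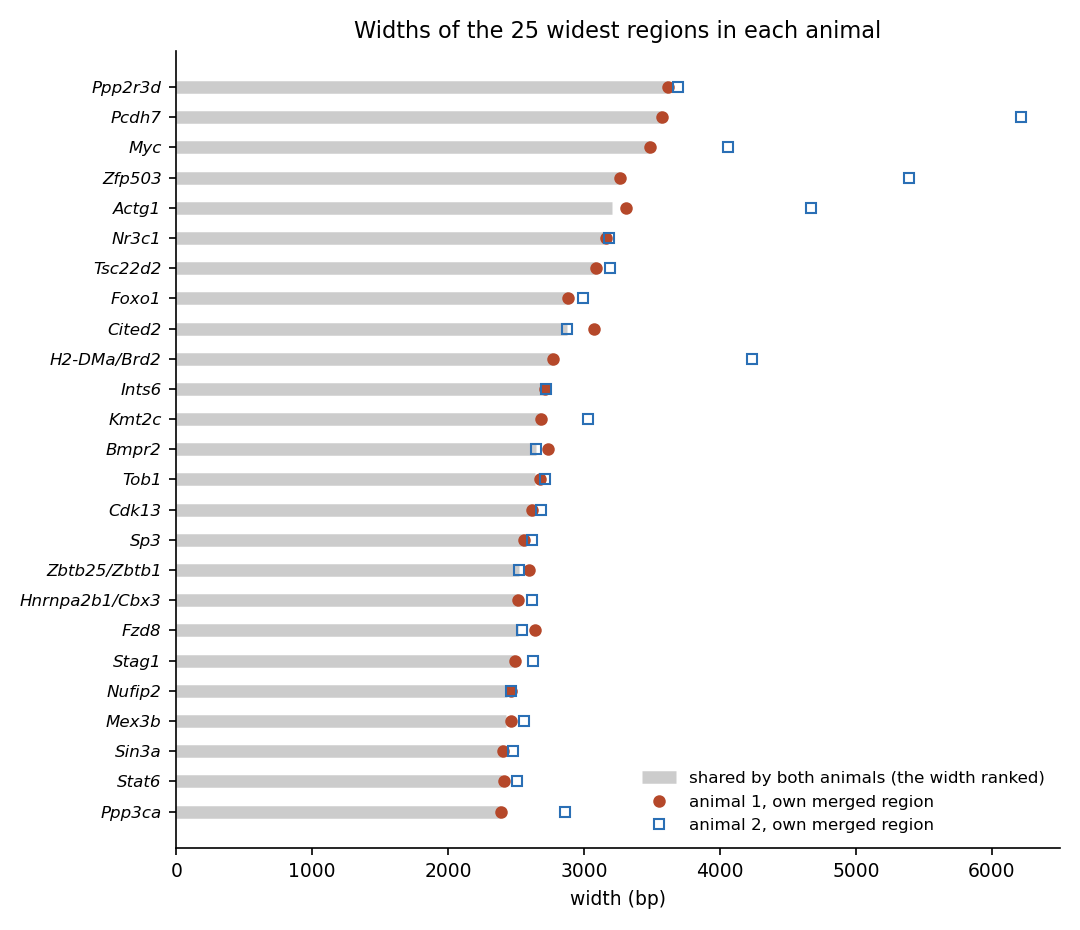
Widths of the 25 widest regions, from the widest at the top; grey bars show the bp shared by both animals, filled circles the region in animal 1 and open squares the region in animal 2. Animal 2 stands far to the right at Pcdh7 (6214 bp), Zfp503 (5393 bp), Actg1 (4669 bp) and H2-DMa/Brd2 (4233 bp), while most genes have both marks close to the end of the bar.

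The regions were wider in animal 2 than in animal 1 at 873 of 1000 places, wider in animal 1 at 124 and equal at 3. Animal 2 was also the wider at 848 of the next 1000 segments and at 47065 of all 86359 other segments. The median own width of the 1000 regions was 1649.5 bp in animal 2 and 1464.5 bp in animal 1. Where the animals differed by over 2-fold, which occurred at 14 places, animal 2 was the wider at 13. Peak heights ran the other way. The highest peak of a region had a median of 5.63 in animal 2 and 9.18 in animal 1, and 47 of 1000 regions were higher in animal 2. The median log2 difference of heights (animal 2 minus animal 1) was -0.68 in the 1000 regions, with an SD of 0.32 over regions. It was close to this in the next 1000 segments, at -0.64, and -0.38 in all other segments. The scaling of heights by the authors is not given in the sources used here, so whether the libraries or the animals set this difference cannot be told apart. The order of regions was shared, with a Spearman correlation between animals of 0.935 for heights and 0.675 for own widths over the 1000 regions, which share the rule that chose them.

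All 1000 regions touched peaks in both animals, as did all of the next 1000 segments. Of all 86359 other segments, 15706 in animal 1 and 14835 in animal 2 touched no peak. The 1000 regions were touched by 2634 peaks in animal 1 and 2382 in animal 2, with a median of 3 and 2 per region and at most 9 and 8. The highest peak of a region ranged between 0.932 and 28.4 in animal 1 and between 1.08 and 14.7 in animal 2. A region's highest peak stood at a median percentile of 97.1 of all autosomal peaks in animal 1 and 96.5 in animal 2. Of all autosomal peaks, 2.29% in animal 1 and 2.38% in animal 2 touched one of the regions. Of the 1000 highest peaks, 217 (21.7%) in animal 1 and 201 (20.1%) in animal 2 did so. This is a larger share than over all peaks, although most of the very highest peaks were elsewhere. The highest peaks of all reached 62.7 and 92.2 outside the regions. Within the 1000 regions width and height had a Spearman correlation of 0.0089 in animal 1 and -8.2e-05 in animal 2 (n = 1000 regions from the same libraries). Tsc22d2, Zfp503 and Ppp2r3d combined great width with heights of 10.1, 11.5 and 12.4 in animal 1 and 7.17, 6.61 and 7.41 in animal 2, whereas Pcdh7 was wide and low.

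The opening was not evenly strong along a region. At a false discovery rate of 1e-10 or below, 60.7% of the bases of the 1000 regions remained in animal 1 and 72.9% in animal 2. A region then fell into a median of 2 stretches in each animal, with up to 22, while 272 regions in animal 1 and 325 in animal 2 kept a single stretch. The longest such stretch had a median of 719.5 bp in animal 1 and 1019.5 bp in animal 2.

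Nearly all of the 1000 regions were promoters. Within 1 kb of an annotated transcript start lay 977 of 1000 (97.7%), while 5 touched an exon, 4 an intron and 14 no gene. Of the next 1000 segments 96.4% were promoters, and of all other segments 43.3%. In sequence, 960 regions (96.0%) met the base composition criteria of a CpG island, against 94.1% of the next 1000 and 21.2% of all others. These criteria were a GC content of at least 50% and an observed to expected CpG ratio of at least 0.6. Among promoters alone the shares were 97.0% for the 1000 regions and 40.5% for other promoter segments. No length limit was applied, so the 43826 other segments under 100 bp are counted too. Of segments of 400 to 799 bp, 66.8% met the criteria. The median GC content was 65.1% in the 1000 regions, 64.7% in the next 1000 and 55.3% in all others. From 100 bp upwards both shares rose with width to about 1200 bp and changed little above it, so place and sequence set the 1000 regions apart from narrow segments but hardly from the next 1000.

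**Figure D2:**
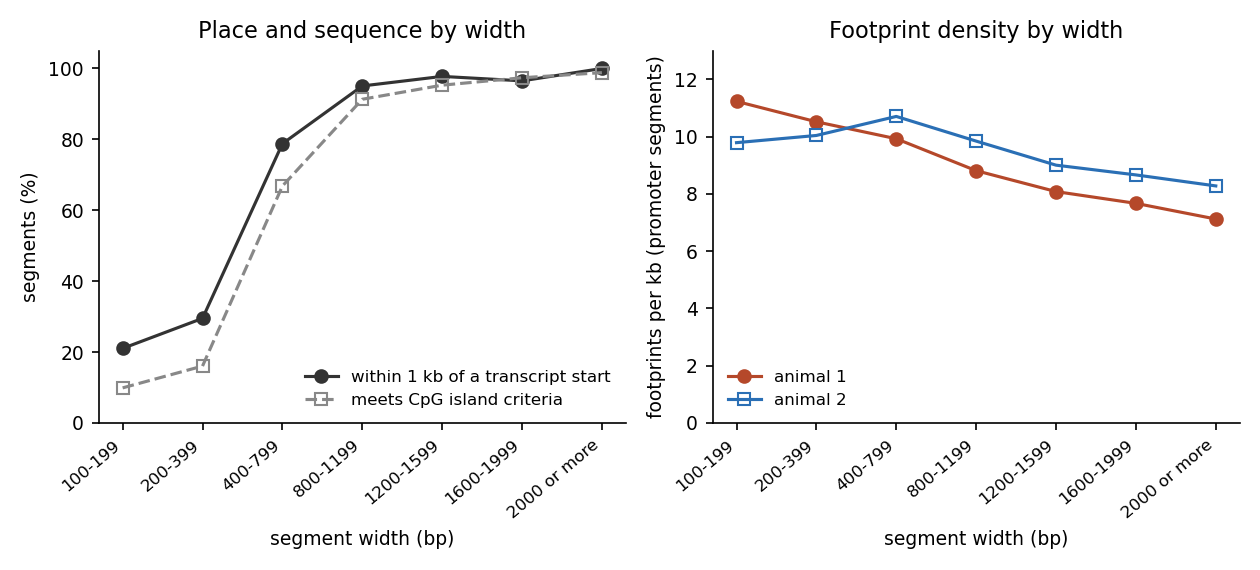
Left, share of segments in each width class (bp) that lie within 1 kb of a transcript start (circles) or meet CpG island criteria (squares); right, footprints per kb in promoter segments of each class for animals 1 (filled) and 2 (open). Promoter shares reach 95.1% at 800 to 1199 bp and stay above 95% in wider classes, and footprint density is 7.12 and 8.28 per kb in segments of 2000 bp or more.

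The regions held 12226 footprints in animal 1 and 13688 in animal 2, or 7.85 and 8.79 per kb (8.32 ± 0.66 per kb, SD, n = 2). The median region had 12 footprints in animal 1 and 13 in animal 2. In both animals this density was below that of the next 1000 segments, which had 8.60 and 9.54 per kb (9.07 ± 0.66), and of all other promoter segments, with 9.57 and 10.1 per kb (9.82 ± 0.35). The animals' values overlap between the 1000 regions and the next 1000, and they do not overlap between the 1000 regions and all other promoter segments. Footprints found in both animals, meaning that each covered at least 50% of the other, numbered 6181, which is 50.6% of the footprints of animal 1 and 45.2% of those of animal 2. The median region had 6, and 7 regions had none. After Ppp2r3d with 33, the most shared footprints were in the regions of H2-DMa/Brd2 (18), Zfpm1, a cofactor of GATA proteins (17), B3galt6/Sdf4 (16) and, with 15 each, Jun, the AP-1 subunit, Egr1 and Pou2f1. Zfpm1 was among the narrower regions, with 1285 bp at rank 880.

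Footprints were concentrated just upstream of the transcript start. Within 1 kb of the start they were sparser farther away, and more so downstream than upstream. In 758 regions that hold the start of a single protein-coding gene, the 100 bp before the most upstream start had 18.1 footprints per covered kb in animal 1 and 18.8 in animal 2. Between 300 and 399 bp downstream these values were 4.48 and 6.09, and 900 to 999 bp downstream 3.77 and 4.18. Upstream they were 6.77 and 7.58 at 401 to 500 bp, and 6.57 in both animals at 1001 to 1100 bp. The next 1000 segments had 18.9 and 19.3 per kb in the 100 bp before the start. Coverage was 98.8% of the 758 regions in those 100 bp, 51.7% at 501 to 600 bp upstream and 45.5% at 900 to 999 bp downstream. Measured from the most upstream start, the median region reached 564 bp upstream and 916.5 bp downstream, and 546 of 758 (72.0%) reached farther downstream. This difference depended on which start was used, because only 30.9% reached farther downstream of the most downstream start, and 58.7% did so among 150 regions whose gene has a single annotated start position.

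**Figure D3:**
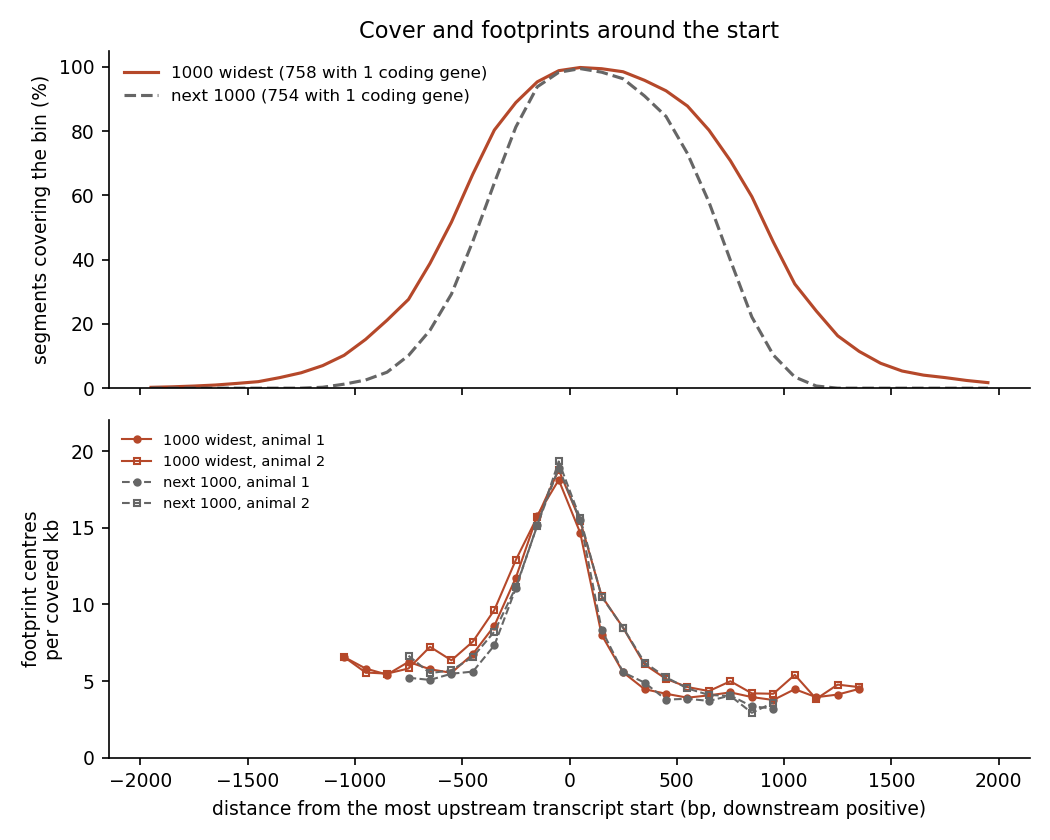
Top, share of segments covering each 100-bp bin by distance from the most upstream start of their gene (downstream positive), for the 1000 widest (solid) and the next 1000 (dashed); bottom, footprint centres per covered kb in both animals, drawn for bins that at least 10% of segments cover. The density peaks at 18.1 and 18.8 per kb just before the start in the widest regions, and the extra cover of the widest regions lies on both flanks.

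A protein-coding transcript start lay inside 940 of the 1000 regions. There were 758 regions with the start of 1 coding gene, 176 with 2 and 6 with 3. Those with 3 were Hdlbp/Sept2, Fiz1/Zfp524, Hook3/Rnf170, Atf5/Nup62/Il4i1, Dpm1/Mocs3 and Myl12a/Myl12b/Myom1, some with a predicted gene, or a second entry of the same symbol, as the third. Starts on both strands, as at divergent promoters, were found in 353 of the 955 regions with any start inside (37.0%), against 14.9% of 12257 other segments with a start. The sets differ in width by construction. By width class, the share was taken among all promoter segments, with or without a start inside. It was 13.2% at 400 to 799 bp, 27.8% at 800 to 1199 bp and 35.5% at 1200 to 1599 bp. In wider classes it was 31.7% at 1600 to 1999 bp and highest at 2000 bp or more. The part of width in the difference between the sets was not tested. In 172 regions the coding starts themselves lay on both strands.

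Within 1 kb of one of the 1000 regions were starts of 1149 of 20807 autosomal protein-coding genes (5.52%), or 8.61% of the 13342 genes with any shared open segment at a start. The share per chromosome lay between 4.07% on chromosome 4 and 10.9% on chromosome 12. The lists of splicing, chaperone, housekeeping, stress, and immediate early and AP-1 genes had larger shares than the 5.52% of all genes. The lists that mark bladder cell types are short and their counts lie near that share. These lists were not chosen without knowledge of the data, and no test was applied to them.

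Of 25 genes of splicing and RNA binding, 10 had one of the widest regions (40%). Hnrnpa2b1, which binds pre-mRNA, led with 2513 bp and heights of 13.1 and 10.1 in animals 1 and 2, followed by Srsf2, a splicing factor with serine and arginine repeats, with 1934 bp, and Son, a scaffold of nuclear speckles, whose region of 1790 bp is shared with Gart. Hnrnpa1, Hnrnpk, Rbm39, Hnrnpl, Ddx5, Srsf7 and Rbm25 were the other 7, at 1269 to 1779 bp. Of 16 chaperone and heat shock genes, 6 had one (37.5%). They were Dnaja1, a co-chaperone of HSP70 (1506 bp), Hspa9, the mitochondrial HSP70 (1380 bp), Hsph1 (1363 bp), Hspa5, the HSP70 of the endoplasmic reticulum, and Hspd1 with Hspe1, the mitochondrial chaperonins that share a divergent promoter.

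Housekeeping genes had 4 of 12 (33.3%), Actg1 (3204 bp), the translation factor Eef1a1 (1696 bp), the prolyl isomerase Ppia (1556 bp) and the ubiquitin gene Ubb. Among cytosolic ribosomal protein genes 1 of 26 had one of the widest regions (3.85%, near the 5.52% of all genes), Rpl7 with 2378 bp, in a region it shares with Rdh10. All 26 ribosomal protein genes had a shared segment at a start, with a median of 726.5 bp for the widest, and all 25 splicing genes had one with a median of 1177 bp. The median over all autosomal protein-coding genes was 379 bp, and 64.1% of them had a shared segment at a start.

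Immediate early genes are transcribed within minutes of a stimulus. The list of immediate early and AP-1 genes had 5 of 22 (22.7%). Beside Myc these were Jun, with 2197 bp, 22 and 21 footprints and heights of 16.9 and 9.32 in animals 1 and 2, Fosl2, an AP-1 subunit (1797 bp), Egr1 and Jund. Hypoxia and stress genes had 5 of 17 (29.4%), beside the 5.52% of all genes. They were led by Nfe2l2, the regulator of the antioxidant response (1990 bp, heights 18.05 and 8.93), Trib1 (1749 bp) and the cell cycle inhibitor Cdkn1a (1582 bp). Ddit4 and Atf4 were the others.

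None of the 22 urothelial genes, 15 smooth muscle genes, 12 endothelial genes and 10 leukocyte genes had one of the widest regions, nor did the 12 liver genes included as a negative control. At the 5.52% of all genes, lists of this length would hold about 1 gene or none, so these counts say nothing about the lists. Of 14 fibroblast genes, 1 had one, Vim with 1728 bp, which is expressed by many mesenchymal cells. Of all autosomal protein-coding genes, 64.1% had a shared segment of some width at a start. Of the 22 urothelial genes, 17 had one, and the median over the list was 259.5 bp. Uroplakin genes, which build the plaques of the urothelial surface, had 425 bp at Upk2, 344 bp at Upk1a, 281 bp at Upk1b and 108 bp at Upk3a. Of the other urothelial markers, Elf3 had 422 bp, Krt5 128 bp and Grhl3 111 bp. Fibroblast markers had 243 bp at Dcn to 524 bp at Pdgfra, and the median over the fibroblast list was 295.5 bp. Smooth muscle markers with a segment had 18 bp at Tagln, 203 bp at Cnn1 and 358 bp at Myh11, with a list median of 204 bp. Endothelial markers had 56 bp at Cdh5 and 577 bp at Kdr, with a list median of 28 bp. Trp63, Acta2, Actg2, Des, Pecam1, Tie1, the 4 leukocyte markers Ptprc, Cd68, Csf1r and Spi1, and the liver genes Alb, Apoa1 and Ttr had no shared segment at a start. Of the 37 Hox genes on the list, 21 had a shared segment, beside the 64.1% of all genes. Only 1, Hoxa7, had one of the widest regions (1454 bp), which is 2.70% of the list beside the 5.52% of all genes.

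**Figure D4:**
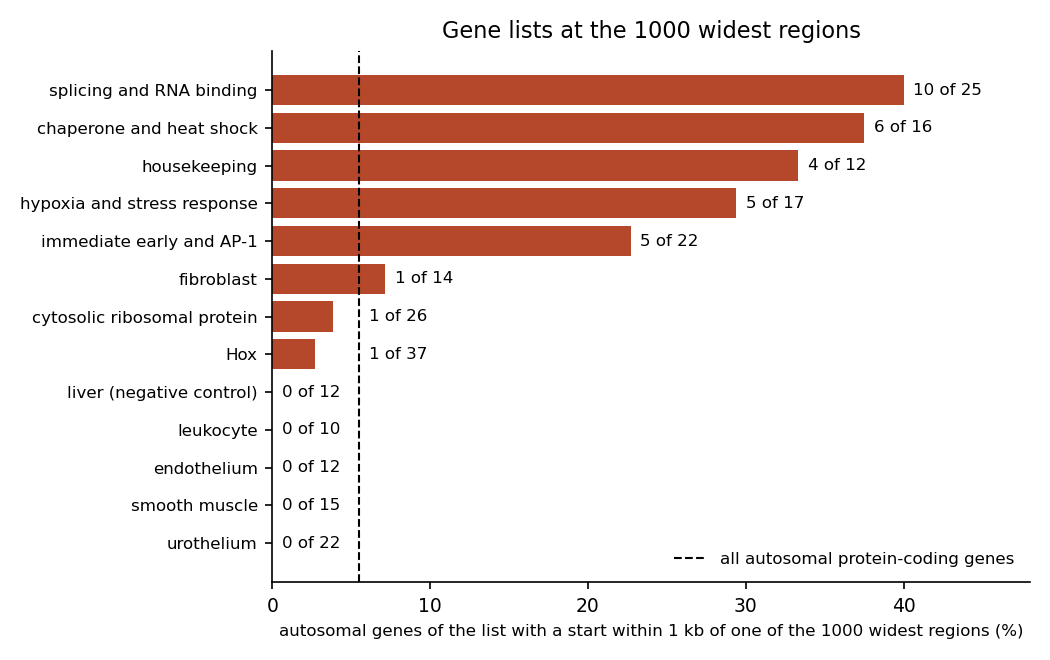
Percent of the autosomal genes of each list with a transcript start within 1 kb of one of the 1000 widest regions, with counts beside the bars; the dashed line is the 5.52% of all autosomal protein-coding genes. Splicing (10 of 25) and chaperone genes (6 of 16) stand at the top, and 5 lists, among them urothelium (0 of 22), have none.

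In 23 of the 1000 regions no annotated GENCODE start lay within 1 kb, and 11 of these were over 10 kb from any protein-coding start of GENCODE. For 12 of the 23, RefSeq places a start within 1 kb that GENCODE does not, and 7 of these 12 hold tRNA genes. At ranks 219, 505 and 691 the tRNA genes are the only RefSeq starts. The remaining 11 of the 23 have no RefSeq start within 1 kb. The widest intergenic region (rank 99, chr4:133813084-133815047, 1964 bp) lay 45883 bp from the nearest GENCODE coding start, that of Rps6ka1. RefSeq, however, has an mRNA start of Gm34296 within 1 kb of it. Its heights were 11.1 and 5.30 in animals 1 and 2. The intergenic region of rank 148 (chr15:81522000-81523860, 1861 bp), from which a stretch is printed above, lay 48378 bp from Rbx1 and had 16 and 12 footprints, 7 of them in both. The other widest intergenic regions, at ranks 219, 423 and 505 near Hfe2, Plxdc1 and Cfap126, all hold tRNA genes. RefSeq also has an mRNA start of Plxdc1 within 1 kb of the region of rank 423.

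The 5 exonic regions included pieces of wide promoters. Those at Zfp503 (rank 165) and Pcdh7 (rank 271) are second pieces beside the promoter regions of ranks 4 and 2, 189 bp and 162 bp away, and in animal 2 each pair was a single region. The others were in Llgl1, Mrpl58 and Fbxl22. The 4 intronic regions lay in Peg3, a paternally expressed imprinted gene (1751 bp, with 22 and 23 footprints, 12 of them shared), Maml3, a Notch coactivator (1636 bp), Rxra, a retinoid receptor (1343 bp), and AC165153.1 (1338 bp, 183624 bp from the coding start of Foxn2). RefSeq has an mRNA start of Peg3 within 1 kb of the Peg3 region. The Rxra region had heights of only 1.82 and 1.41 and was 1377 bp wide in animal 1 and 5171 bp in animal 2. In all, 10 pairs of neighbouring regions were under 5 kb apart, at Jade2, Phf12, Rnf44, Zfp503, Klf10, Brd2, Pcdh7, Ing1 and Sin3a, with gaps of 56 to 4998 bp.

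Transfer RNA genes, which RNA polymerase III transcribes from promoters inside the gene, occurred in 17 of the 1000 regions (1.7%), against 0.181% of the other segments. Of 386 autosomal tRNA genes in RefSeq, 29 lay wholly in one of the widest regions, 164 touched another shared segment and 193 touched none. The other segments are narrower by construction, and the part of width in these shares was not tested. The region of rank 219 (chr3:96499418-96501167, 1750 bp) holds 3 of them, shown because an element of the internal promoter, the B box, can be read in them. They are printed on their own strand, the minus strand of GRCm38, with the B box in capitals.
n-TKctt16, chr3:96499512-96499584: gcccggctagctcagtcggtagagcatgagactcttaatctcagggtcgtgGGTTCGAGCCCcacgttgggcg
n-THgtg8, chr3:96500366-96500437: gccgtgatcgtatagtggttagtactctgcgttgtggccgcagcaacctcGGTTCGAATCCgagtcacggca
n-TGtcc7, chr3:96501009-96501080: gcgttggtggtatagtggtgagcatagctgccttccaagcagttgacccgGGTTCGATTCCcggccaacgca
The 29 tRNA genes had 17.0 footprints per kb in animal 1 and 19.3 in animal 2, while the rest of the same 17 regions had 8.57 and 9.37 per kb. A footprint touched 28 of the 29 genes in animal 1 and 26 in animal 2. The B box consensus was found in 19 of the 29 and in 221 of all 386. With 37 and 42 footprints behind these densities, the ratio rests on small counts, although it was alike in both animals.

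Promoter sequences lying in the regions were compared with those of other promoters in windows of 300 bp from RefSeq (GRCm38). By symbol, 81.0% of the genes at the regions had such a promoter, but promoters were sorted by position. Other open promoters had at least 150 bp in other shared segments and no base in the widest regions. A further 1474 promoters, partly covered in other ways, are counted only among all promoters. The GC box GGGCGG was in 81.0% of 1137 promoters lying wholly in the widest regions, against 69.5% of 10416 other open promoters, 13.7% of 18369 promoters with no shared segment and 36.0% of all 31396 promoters. The ETS consensus CCGGAAGT was in 5.28% of promoters in the widest regions and in 9.61% of other open promoters. The core of the CTCF consensus was in 0.264% and 1.34%, the AP-1 consensus TGANTCA in 2.73% and 4.61%, and TATAAA in 3.52% and 5.62%. Other motifs were more frequent in the promoters in the widest regions than in other open promoters. The YY1 consensus was in 2.99% and 2.05% and the palindrome bound by BANP in 2.11% and 1.10%. Shares lay close together for the CCAAT box (39.5% and 38.3%), the E-box CACGTG (11.4% and 10.8%) and TGACGTCA (3.43% and 3.67%). All were searched on both strands. Median GC content was 67.7% in these promoters and 62.0% in other open ones, and its part in the motif shares was not tested. Over whole segments instead of promoter windows, the YY1 consensus was less dense in the widest regions than in the segments next in width (0.0507 and 0.0542 per kb). The same held for the BANP palindrome (0.0186 and 0.0240 per kb).

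The same motifs were counted in the footprints, extended by 5 bp on each side. In the widest regions 21.2% of footprints in animal 1 and 18.9% in animal 2 held GGGCGG, against 16.5% and 15.2% in other promoter segments and 10.01% and 9.58% in all other segments. The CTCF core was in 0.114% and 0.110% of footprints in the widest regions, 0.651% and 0.621% in other promoter segments and 2.37% and 2.33% in all other segments. For TGANTCA these values were 0.131% and 0.095%, 0.340% and 0.298%, and 0.813% and 0.749%. Each of these 3 orders was the same in both animals. Footprints in the segments next in width were not counted apart from those in the other segments. Over whole segments, GGGCGG occurred 4.68 times per kb in the widest regions and 4.59 times in the segments next in width. In the same order, TGANTCA occurred 0.125 and 0.124 times per kb and the CTCF core 0.0154 and 0.0187 times. The CCAAT box was in 4.57% and 4.29% of footprints in the widest regions and in 3.82% and 3.77% in other promoter segments. Footprints were wider in the regions, with a median of 12 and 10 bp in animals 1 and 2, than elsewhere, with 10 and 9 bp, and the part of this in the motif shares was not tested.

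**Figure D5:**
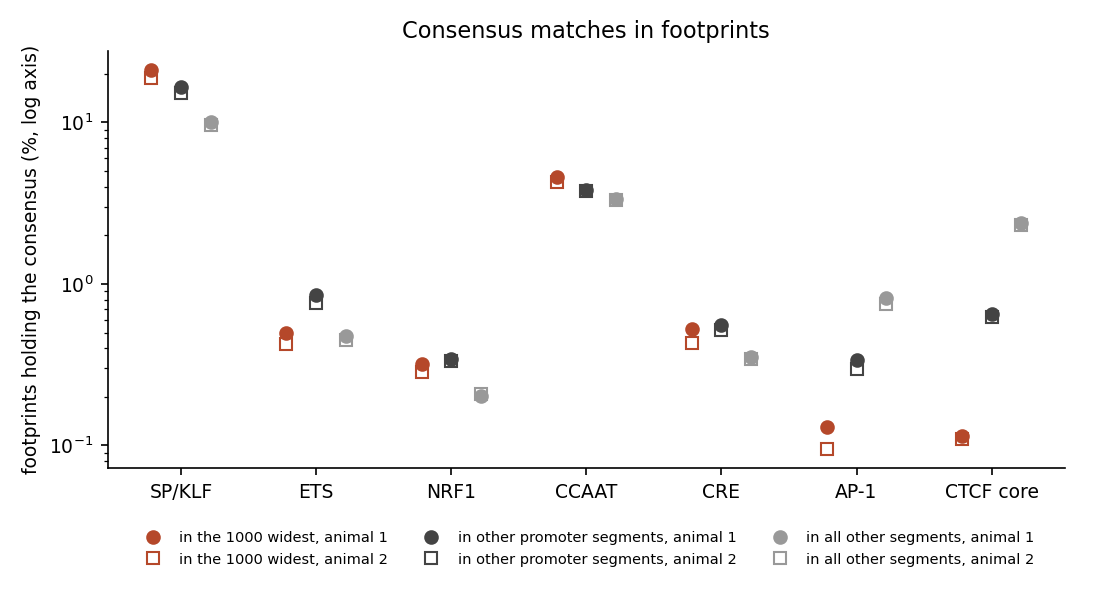
Percent of footprints that hold each consensus on either strand (log axis), in the 1000 widest regions, in other promoter segments and in all other segments, for animals 1 (filled circles) and 2 (open squares). Among the sets shown, the GC box is most frequent in the widest regions (21.2% and 18.9%), and the CTCF core and AP-1 consensus are least frequent there. The segments next in width are not shown as a set of their own.

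No region had a copy elsewhere in the genome at 90% identity over 80% of its width. At 50% of the width 1 had one, the region of Zbtb10 at rank 758, with 98.1% identity over 77.0% of it on chromosome 7.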

How the data were processed

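DNase-seq was measured in the urinary bladder of 2 mice, 1 library each, on mm10 per the labels; no aligner, peak caller or depth was given in the sources used here. The deposited false discovery rate per base, a p-value type column, ends at 0.05; the deposited footprints carry a constant p-value threshold of 0.01. Peak height is a signal computed by the authors with a scaling that is not stated; heights are whole multiples, within 0.05 of a step, of 0.00789 in animal 1 and 0.00849 in animal 2, and what a step stands for is not stated. Of 2 deposited peak lists per animal, the larger was used, with 114881 and 100144 autosomal peaks, and the smaller as an alternative. Counting precision is therefore unknown.

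Bases at 0.001 or below were merged where they overlapped or touched, and the autosomal regions of both animals (106925 and 109422) were intersected. Place came from GENCODE vM21 on GRCm38, where any transcript start within 1 kb makes a promoter, then exon, intron and intergenic in that order. A peak belonged to a region from 1 shared bp. tRNA genes came from RefSeq, and printed sequence is the C57BL/6J reference, not that of the hybrid animals. Some items are not reported here. Copies were sought with blastn 2.17.0 (word size 28). Python 3.11.15, pandas 2.3.3, numpy 2.4.6, pysam 0.24.0 and samtools 1.23.1 were used, and the interval code was checked on simulated intervals. The regions and the 13 gene lists were chosen with earlier results of these data known. Genes are named for the 25 widest regions, 3 on each side of the limit, the 5 widest exonic, intronic and intergenic regions, the 5 with the most shared footprints or coding starts, copies, and the 3 widest of each list; other names were chosen after their values were seen. Alternatives were other false discovery rates, bridged gaps, other numbers of regions, each animal alone, other windows, peak lists and footprint rules.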

Additional observations from a re-analysis of the deposited data

Results flagged for a closer look

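On the X chromosome, outside the autosomal rule, 15 of 2043 shared segments were at least as wide as the narrowest of the 1000 regions, 1245 bp. They drew attention because they belong to data that no comparison above uses. Of the 15, 14 were at promoters, and the widest was 2515 bp at Usp9x, which encodes a deubiquitinase; Ddx3x (2244 bp) and Kdm6a (2122 bp) were among them. On the Y chromosome of these female animals, 9 shared segments were listed and none was as wide, with 488 bp for the widest.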

How the results depend on the processing

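The number of regions at promoters ranged from 926 to 983 per 1000 and those meeting CpG island criteria from 909 to 976 over the alternatives run for each, and all 1000 touched peaks in both animals under the alternatives run for peaks. The median width of 1453.5 bp moved to 1294.5 bp at a false discovery rate of 0.0001, 1671 bp at 0.01 and 1876 bp at 0.05, and to 1478 bp without animal 2 and 1861 bp without animal 1. Of the 1000 regions, 801 remained at 0.0001, 747 at 0.01, 610 at 0.05 and 904 with gaps of up to 20 bp bridged, while 930 remained without animal 2 and 586 without animal 1. Counting footprints found in both animals gave 3.97 per kb. Relaxing the copy criterion to 50% of the width gave 1 copy. Genes of all lists at the widest segments numbered 21 with 500 segments and 56 with 2000. With 2000 segments the lists had 19 splicing, 9 immediate early or AP-1, 9 stress, 2 Hox, 2 ribosomal protein and 1 smooth muscle genes. With 500 segments they had 5 splicing and 1 chaperone genes, as fewer or more segments are counted by construction. The share of regions reaching farther downstream reversed to 30.9% with the most downstream start, an alternative chosen after seeing the data. No paired analysis was possible because the study has a single group. With 2 animals and unknown depth, edges of regions are the least certain values.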

Other observations

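Gene families were chosen after their values were seen, so their counts are descriptions only, to be read against the 5.52% of all autosomal protein-coding genes. Of 19 autosomal Hnrnp genes, 11 had a start within 1 kb of one of the 1000 widest regions, as did 11 of 39 Zbtb genes, 5 of 17 Cdk genes (Cdk12, Cdk13, Cdk17, Cdk19 and Cdk6), 5 of 15 Kdm genes, 4 of 8 Kmt genes and 4 of 16 Klf genes. Further counts were 1 of 75 Rpl and Rps genes (1.33%), 10 of 357 Slc transporter genes (2.80%), 2 of 67 histone genes (2.99%, near the share of all genes) and none of 53 keratin, 100 cytochrome P450 and 1128 olfactory receptor genes. Shared open segments of any width were at 72 of the 75 ribosomal protein genes and 11 of the 53 keratin genes. Over all autosomal protein-coding genes this share was 64.1%.

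Non-coding genes were the only annotated genes with a start within 1 kb of 14 of the 1000 regions. One of these holds the microRNA gene Mirlet7i (rank 639, 1381 bp, peak heights 3.45 and 2.45 in animals 1 and 2), and another lies at Dleu2, a long non-coding RNA gene (rank 320, 1590 bp, heights 9.69 and 5.15). Exons made up 43.1% of the bases of the 1000 regions, introns 32.8% and sequence outside genes 24.1%.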
